A study of Xenopus laevis with 36 samples.

Results

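The genes described here are those of the major histocompatibility complex (MHC) and of antigen presentation in healing skin wounds of the frog *Xenopus laevis*. They were taken by name: every row of the count table named *cd74*, *b2m*, *tap1*, *tap2*, *tapbp* or *ciita*, or starting with mhc, with or without the .L or .S that marks the long and short copy of each chromosome in this tetraploid frog. This gave 13 rows of the 42257 that name a gene, and each row was kept apart. Juvenile outbred frogs, labelled WT, had a 2 mm punch wound made in the dorsal skin and were injected under the skin near it at 3 days post wounding (dpw). The 6 groups differed in what was injected and in when the wound was taken. Control wounds received rctrl, a preparation from insect cells carrying an empty vector, and the others received 1 µg of recombinant CSF1 (rCSF1) or recombinant IL34 (rIL34) in 20 µL. Wounds were taken at 7 or 14 dpw and RNA was sequenced from 6 libraries per group, 36 in all. CSF1 and IL34 are growth factors of macrophages that signal through the same receptor, CSF1R. The comparisons ask how each cytokine changed the wound. Each treatment was given once at 1 dose, and unwounded skin was not analysed here.

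Antigen presentation shows peptides to T cells on 2 kinds of MHC molecule. Class I molecules, held by β2-microglobulin, carry peptides from inside the cell. These are cut by the proteasome, moved into the endoplasmic reticulum by the TAP transporter and loaded with the help of tapasin. Class II molecules, found in mammals chiefly on macrophages, dendritic cells and B cells, carry peptides taken up from outside and are escorted by the invariant chain CD74. In mammals CIITA is the master activator of class II genes, and interferon gamma raises both pathways. In *X. laevis* the class Ia, TAP and *psmb8* genes lie together and occur as old, divergent allelic lineages that are inherited as a block.

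The class II rows were *mhc2a.S*, a class II alpha chain on chromosome 8S (80798194 to 80842256 of Xenopus_laevis_v10.1), *cd74.L* on 3L (21543301 to 21564129), *cd74.S* on 3S (15608254 to 15624423), *ciita.S* on 9_10S (86221453 to 86275010) and a row named *CIITA*, which had no RefSeq match by symbol and so no position. The class I rows were *b2m.S* (β2-microglobulin) on 9_10S (113680520 to 113687214), *mhc1b.L* and *mhc1b2.L* on 8L (125438310 to 125613789 and 125361030 to 125372121), and *mhc100494167.L*, whose name gives no class, was on 1L (114143878 to 114156870). RefSeq gives b2m.L as another name of *b2m.S*, and the table has this 1 *b2m* row. By name, *mhc1b.L* and *mhc1b2.L* are nonclassical class I genes. The loading rows were *tap1.L* and *tap2.L*, the TAP subunits, on 8L (64993957 to 65016897 and 65014726 to 65035687), and tapasin as *tapbp.L* on 8L (63883633 to 63895260) and *tapbp.S* on 8S (80558361 to 80574790). The 12 matched genes are protein-coding, and the positions are the whole gene spans with introns. All 13 rows passed the filter on low counts, at 0.5 CPM (counts scaled to the library's total) in 10 libraries. L and S copies, and *mhc1b.L* and *mhc1b2.L*, may share reads, so the split between such rows is uncertain, and the spans of *tap1.L* and *tap2.L* share 2172 bases.

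Total counts were 22435798 to 34868292 per library, with a median of 29370148. The summed level of the 22 epidermal marker rows was between 3195 and 13921 CPM in the 36 libraries, so the skin label was met by its markers. rCSF1 replicates 2 and 5 at 7 dpw stood apart from the other libraries on the second principal component, with TMM scaling factors of 0.712 and 0.825, and the calls of the 13 genes and of the named list rows that involve this group are given with and without them. rCSF1 replicates 1, 2 and 6 at 14 dpw had been set apart earlier by skeletal muscle transcripts, and the sum over 18 skeletal muscle rows was 95.4 to 27642 CPM in that group against 24.7 to 76.0 CPM in rctrl. These were bulk samples, so fewer cells of a type and less RNA per cell cannot be told apart. The labels do not say whether each library came from a separate frog, so the p-values measure the spread between these libraries, which may be technical in part.

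In rctrl wounds *mhc2a.S*, both *cd74* copies, *b2m.S*, *mhc1b.L* and *tapbp.S* were lower at 14 than at 7 dpw. Of the 13 genes, 6 fell and none rose by edgeR's quasi-likelihood test at an adjusted p under 0.05, beside 26.4% of all 28225 tested genes called lower and 22.9% called higher. The median log2 fold change of the 13 was -0.98, beside -0.01 for all tested genes. Below, CPM are TMM-normalized, 3 CPM values of a group are the lowest, the median and the highest of its 6 libraries, SE is the standard error of the log2 fold change, and adjusted p is that of edgeR's test over all tested genes. *mhc2a.S* was at 209.7, 243 and 310.4 CPM at 7 dpw and at 40.7, 52.2 and 70.7 CPM at 14 dpw. Every library at 14 dpw was below every library at 7 dpw, and the log2 fold change was -2.19 (SE 0.30, adjusted p = 3.5e-07). *cd74.S*, an invariant chain copy, went from 759, 1123 and 1239 CPM to 188, 219.6 and 317 CPM with no overlap, a log2 fold change of -2.18 (SE 0.41, adjusted p = 5e-05).

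The other copy, *cd74.L*, was at 234, 321 and 592 CPM at 7 dpw and 169, 204 and 300.1 CPM at 14 dpw. These ranges overlapped, and the log2 fold change was -0.73 (SE 0.26, adjusted p = 0.021). It rested on 1 library, since without rctrl replicate 1 of 7 dpw it was -0.52 (adjusted p = 0.096). *CIITA* and *ciita.S*, the class II activator, did not pass the test, at log2 fold changes of -0.63 (SE 0.28, adjusted p = 0.065) and -0.56 (SE 0.35, adjusted p = 0.18). These 2 turned on the setting. *CIITA* passed with limma voom (-0.63, adjusted p = 0.013), with a fit to these groups alone (-0.61, adjusted p = 0.0051) and without rctrl replicate 1 of 7 dpw (-0.71, adjusted p = 0.048), and *ciita.S* passed with a fit to these groups alone (-0.55, adjusted p = 0.033).

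Among class I genes, *b2m.S* went from 147, 220.0 and 333 CPM to 70.9, 108 and 129 CPM, with a log2 fold change of -1.13 (SE 0.31, adjusted p = 0.0031). *mhc1b.L* went from 19.2, 34.2 and 101 CPM to 6.38, 8.36 and 13.1 CPM, with a log2 fold change of -2.42 (SE 0.57, adjusted p = 0.00073). *tapbp.S* went from 10.6, 12.9 and 17.6 CPM to 4.05, 6.01 and 6.70 CPM, with a log2 fold change of -1.24 (SE 0.31, adjusted p = 0.0012). The groups did not overlap for any of these 3 genes. The L copy of tapasin did not pass: *tapbp.L* was at 17.8, 21.9 and 35.7 CPM at 7 dpw and 18.8, 21.7 and 30.1 CPM at 14 dpw. With the L and S copies summed, tapasin did not pass the test either, at -0.38 (adjusted p = 0.11). *mhc1b2.L* and *mhc100494167.L* gave log2 fold changes of -0.48 (SE 0.56, adjusted p = 0.5) and -0.60 (SE 0.26, adjusted p = 0.054). The latter passed with limma voom (-0.66, adjusted p = 0.0055), with these groups alone (-0.59, adjusted p = 0.025) and without rctrl replicate 5 of 7 dpw or replicate 1 or 5 of 14 dpw (-0.76 to -0.64, lowest adjusted p = 0.020). *tap1.L* and *tap2.L* gave -1.15 (SE 0.82, adjusted p = 0.25) and -0.98 (SE 0.81, adjusted p = 0.33).

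*mhc2a.S*, *cd74*, *b2m.S* and tapasin also fell with time after rIL34, and tapasin and *mhc100494167.L* fell after rCSF1. After rIL34, 6 of the 13 genes fell and none rose, beside 27.1% of tested genes called lower and 20.4% called higher. They were *mhc2a.S* (-1.22 on the log2 scale), *cd74.S* (-1.62), *b2m.S* (-1.45), *tapbp.S* (-1.42), *tapbp.L* (-1.15) and *cd74.L* (-0.90). After rCSF1, 3 fell and none rose, beside 30.4% called lower and 23.9% called higher. These were *mhc100494167.L* at -1.05 (SE 0.26, adjusted p = 0.0012), *tapbp.S* at -1.03 (SE 0.31, adjusted p = 0.0055) and *tapbp.L* at -0.53 (SE 0.20, adjusted p = 0.022), while *mhc2a.S* was at -0.51 (SE 0.29, adjusted p = 0.13) and *cd74.S* at -0.68 (SE 0.40, adjusted p = 0.15). Without rCSF1 replicates 2 and 5 of 7 dpw, *cd74.S* and *mhc2a.S* passed, at -1.11 (adjusted p = 0.0049) and -0.88 (adjusted p = 0.0013). Without those libraries *mhc100494167.L* (-0.45, adjusted p = 0.12) and *tapbp.L* (-0.31, adjusted p = 0.22) no longer passed. The call of *tapbp.L* was also lost without rCSF1 replicate 2 or 4 of 7 dpw or replicate 6 of 14 dpw, where the smallest change was -0.38 (adjusted p = 0.11). It was lost as well without rCSF1 replicates 1, 2 and 6 of 14 dpw (-0.47, adjusted p = 0.13), with limma voom (-0.45, adjusted p = 0.061), with a 5 CPM filter (-0.38, adjusted p = 0.072) and with these groups alone (-0.47, adjusted p = 0.063). The call of *cd74.S* was gained without replicate 5 of 7 dpw and that of *mhc2a.S* without replicate 2 or 5, with lowest adjusted p of 0.046 and 0.023.

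**Figure D1:**
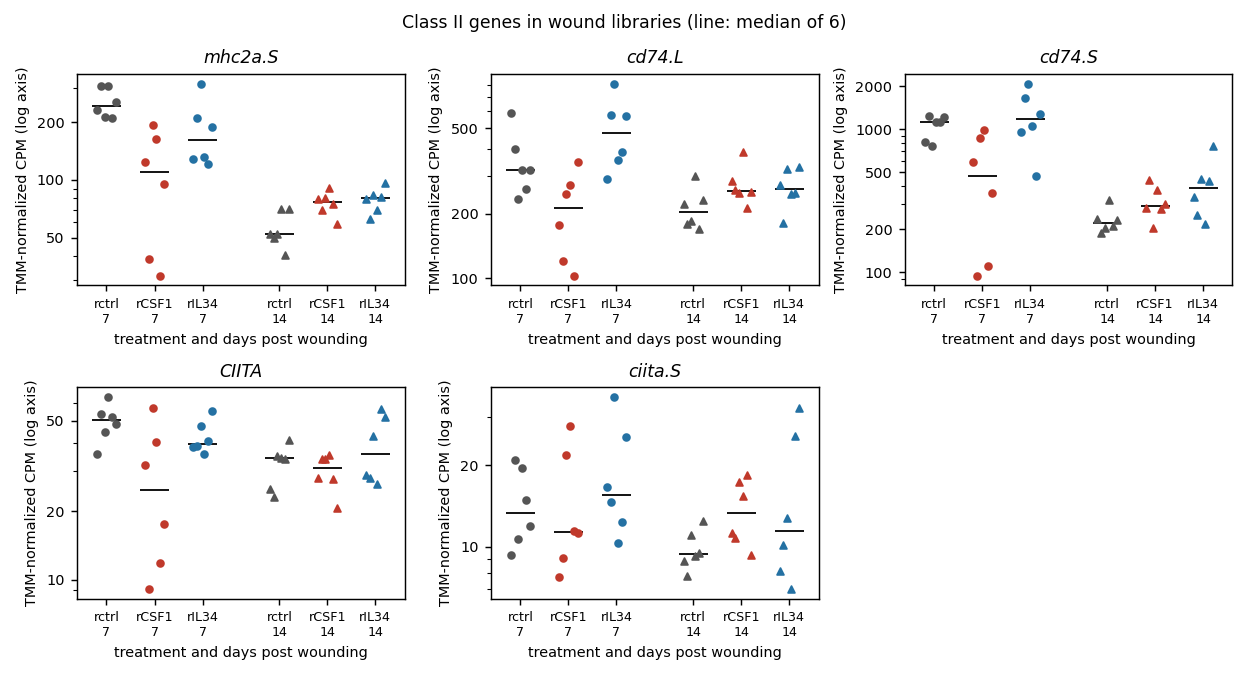
TMM-normalized CPM (log axes) of the class II genes in each library, by treatment and days post wounding, with a line at the median of the 6 libraries of a group. For *mhc2a.S* the rctrl libraries at 7 dpw sit at 209.7 to 310.4 CPM, above all rCSF1 libraries of that day and above all rctrl libraries at 14 dpw.

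rCSF1-treated wounds at 7 dpw had lower levels of *mhc2a.S*, both *cd74* copies and *CIITA* than rctrl wounds, and a higher level of *tapbp.L*. Of the 13 genes, 4 were lower and 1 was higher, beside 14.1% of tested genes called lower and 20.4% called higher. The median log2 fold change of the 13 was -0.40, beside -0.03 for all tested genes. *mhc2a.S* stood at 209.7, 212, 231, 255, 309.6 and 310.4 CPM in the 6 rctrl libraries and at 31.7, 38.8, 95.7, 124, 164 and 192 CPM in the 6 rCSF1 libraries. No rCSF1 library reached the lowest rctrl library, and the log2 fold change was -1.24 (SE 0.29, adjusted p = 0.0014). The call held under every alternative setting and with each library left out in turn, with log2 fold changes from -1.49 to -0.85. Without rCSF1 replicates 2 and 5, the lowest, it was -0.85 (adjusted p = 0.011).

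The remaining class II changes were smaller against their spread. *cd74.S* was at 759, 1123 and 1239 CPM in rctrl and 94.7, 472 and 993 CPM in rCSF1 wounds, a log2 fold change of -1.06 (SE 0.40, adjusted p = 0.038). *cd74.L* was at 234, 321 and 592 CPM in rctrl and 103, 213 and 348 CPM in rCSF1 wounds, a log2 fold change of -0.75 (SE 0.26, adjusted p = 0.026). *CIITA* was at 35.7, 50.2 and 63.5 CPM in rctrl and 9.12, 24.9 and 56.7 CPM in rCSF1 wounds, a log2 fold change of -0.83 (SE 0.29, adjusted p = 0.024), while *ciita.S*, at 9.31, 13.4 and 21.0 CPM in rctrl and 7.72, 11.3 and 27.9 CPM in rCSF1 wounds, gave 0.03 (SE 0.34, adjusted p = 0.96). The groups overlapped for each of these genes. For all 3 that passed, rCSF1 replicates 2 and 5 were the lowest 2 of the group, and the call was lost without them: *cd74.S* was then at -0.60 (adjusted p = 0.23), *cd74.L* at -0.47 (adjusted p = 0.23) and *CIITA* at -0.46 (adjusted p = 0.21). Single libraries were enough to end them: *cd74.S* without rctrl replicate 2, 4, 5 or 6 or rCSF1 replicate 2, 5 or 6 (-1.37 to -0.85 over all libraries left out in turn, adjusted p up to 0.096), *cd74.L* without rctrl replicate 1 or rCSF1 replicate 2 or 5 (-0.95 to -0.54, up to 0.103) and *CIITA* without rctrl replicate 4 or rCSF1 replicate 2, 5 or 6 (-1.16 to -0.67, up to 0.074). The same 3 calls were lost with limma voom and with a fit to these groups alone, and *mhc2a.S* was called in both. Macrophage markers were not called in this comparison, at 0 of 12 tested rows by edgeR's test (unadjusted p under 0.05 in 1 row, in the lower direction), and their summed level was 176 to 824 CPM in rCSF1 against 526 to 833 CPM in rctrl wounds. rCSF1 replicates 2 and 5 were the lowest 2, at 176 and 289 CPM. Other cells' markers moved too, where 20.4% of all tested genes were called higher and 14.1% lower. Of 11 neutrophil rows 4 were higher after rCSF1 and none lower, among them *csf3r.L* (1.21), the receptor of a granulocyte growth factor, and *mmp8.S* (5.65), a collagenase of neutrophils. Their summed level was 755 to 10934 CPM in rCSF1 against 609 to 1059 CPM in rctrl wounds. Of 20 epidermal rows 12 were higher and none lower, with sums of 4779 to 13921 CPM against 3195 to 7527 CPM. rCSF1 replicates 2 and 5 held the highest 2 sums of both lists, at 10934 and 7387 CPM for neutrophil rows and 13921 and 10713 CPM for epidermal rows. Without these libraries 1 of 11 neutrophil rows (*csf3r.L*) and 9 of 20 epidermal rows were called, all higher. All tested genes then had 7.18% called higher, and the 1 of 11 is near that share. The part of cell numbers in the class II changes was not tested.

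At 7 dpw both copies of the invariant chain and β2-microglobulin were lower after rCSF1 than after rIL34. Of the 13 genes, 3 were lower after rCSF1 than after rIL34 and none higher, beside 8.05% of tested genes called lower and 9.35% called higher. *cd74.L* was at 103, 213 and 348 CPM after rCSF1 and at 289, 478 and 809 CPM after rIL34, a log2 fold change of -1.24 (SE 0.26, adjusted p = 0.0022). Only a fit to these groups alone lost this call, at -1.23 (adjusted p = 0.11), among the settings tried. That fit called 5 of all 28225 tested genes in this comparison. *cd74.S*, at 94.7, 472 and 993 CPM after rCSF1 and 471, 1173 and 2082 CPM after rIL34, gave -1.32 (SE 0.40, adjusted p = 0.022). *b2m.S*, at 84.1, 169 and 322 CPM after rCSF1 and 137, 290.2 and 697 CPM after rIL34, gave -0.92 (SE 0.31, adjusted p = 0.038). Without rCSF1 replicates 2 and 5 neither passed, at -0.82 (adjusted p = 0.13) for *cd74.S* and -0.57 (adjusted p = 0.29) for *b2m.S*. Both calls were lost with limma voom (adjusted p = 0.053 for *cd74.S* and 0.227 for *b2m.S*). They were lost as well with a fit to these groups alone (0.225 and 0.247), and that of *b2m.S* with no filter (0.053). The *cd74.S* call also ended without rCSF1 replicate 2 or 5 or rIL34 replicate 3 (adjusted p up to 0.060), and that of *b2m.S* without rCSF1 replicate 2, 5 or 6 or rIL34 replicate 2, 3 or 6 (up to 0.19). The ranges of the 2 groups overlapped for all 3 genes. *mhc2a.S* did not pass, at -0.77 (SE 0.29, adjusted p = 0.0605), but its call turned on the setting. It passed with DESeq2 (-0.73, adjusted p = 0.048) and with a replicate block (-0.85, adjusted p = 0.037). It also passed without rCSF1 replicate 3 or 4 or rIL34 replicate 5 (lowest adjusted p = 0.015). *CIITA* (-0.61, adjusted p = 0.14) passed without rCSF1 replicate 3. *mhc100494167.L*, higher at 0.62 (adjusted p = 0.094), passed without rCSF1 replicate 1 or 6. Of 12 macrophage rows 1 was lower after rCSF1 than after rIL34 and none higher, and their sum was 624 to 1193 CPM after rIL34. Of 11 neutrophil rows 5 were higher and none lower, with a sum of 977 to 1303 CPM after rIL34, and of 20 epidermal rows 2 were higher and 3 lower. Leaving out rCSF1 replicates 2 and 5, these counts were 1 higher for neutrophil rows and 1 lower for epidermal rows, beside 2.88% of tested genes called higher and 3.33% called lower. The part of these markers was not tested.

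Tapasin was the 1 gene of the 13 that was higher in rIL34-treated than in rctrl wounds at 7 dpw, and none of the 13 was lower, beside 15.8% of tested genes called higher and 11.2% called lower. At an unadjusted p of 0.05 the count was likewise 1 gene up and 0 down. *tapbp.L* stood at 17.8, 20.5, 21.6, 22.3, 25.0 and 35.7 CPM in the rctrl libraries and at 33.6, 37.9, 45.6, 55.2, 69.0 and 74.0 CPM in the rIL34 libraries. Of the rctrl libraries only the highest reached the rIL34 range, and the log2 fold change was 1.14 (SE 0.20, adjusted p = 7.9e-05). The call held under every alternative setting and with each library left out, at 0.93 to 1.29. *tapbp.S* was at 10.6, 12.9 and 17.6 CPM in rctrl and 9.39, 16.6 and 42.9 CPM in rIL34 wounds, a log2 fold change of 0.60 (SE 0.30, adjusted p = 0.14). The class II genes did not pass against rctrl: *mhc2a.S* was at -0.47 (95% interval -1.03 to 0.09, adjusted p = 0.23), *cd74.L* at 0.49 (95% interval -0.02 to 1.00, adjusted p = 0.17), *cd74.S* at 0.26 (95% interval -0.52 to 1.03, adjusted p = 0.67) and *CIITA* at -0.22 (95% interval -0.77 to 0.34, adjusted p = 0.6), and *b2m.S* was at 0.51 (95% interval -0.09 to 1.12, adjusted p = 0.22). The intervals here take 1.96 standard errors either way. *cd74.L* turned on the setting, since it passed with limma voom (0.61, adjusted p = 0.044) and without rctrl replicate 1 (0.69, adjusted p = 0.0495).

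*tapbp.L* was also higher after rCSF1 at 7 dpw, at 20.9, 37.4 and 48.4 CPM and a log2 fold change of 0.62 (SE 0.20, adjusted p = 0.014). Without rCSF1 replicates 2 and 5 it was 0.42 (adjusted p = 0.18), without replicate 2 alone the call was also lost (adjusted p = 0.063), and with the L and S copies summed tapasin was at 0.46 (adjusted p = 0.071). *tapbp.S* was at 9.53, 11.4 and 30.5 CPM after rCSF1, a log2 fold change of 0.21 (SE 0.30, adjusted p = 0.62). The direct comparison of rCSF1 with rIL34 gave -0.52 (SE 0.20, adjusted p = 0.06) for *tapbp.L*. It passed with limma voom (-0.65, adjusted p = 0.049) and with a 5 CPM filter (-0.49, adjusted p = 0.047). It also passed without rCSF1 replicate 2 or 4 or rIL34 replicate 1, 4 or 5 (lowest adjusted p = 0.032). The comparisons of rCSF1 and of rIL34 with rctrl share the same 6 control libraries.

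**Figure D2:**
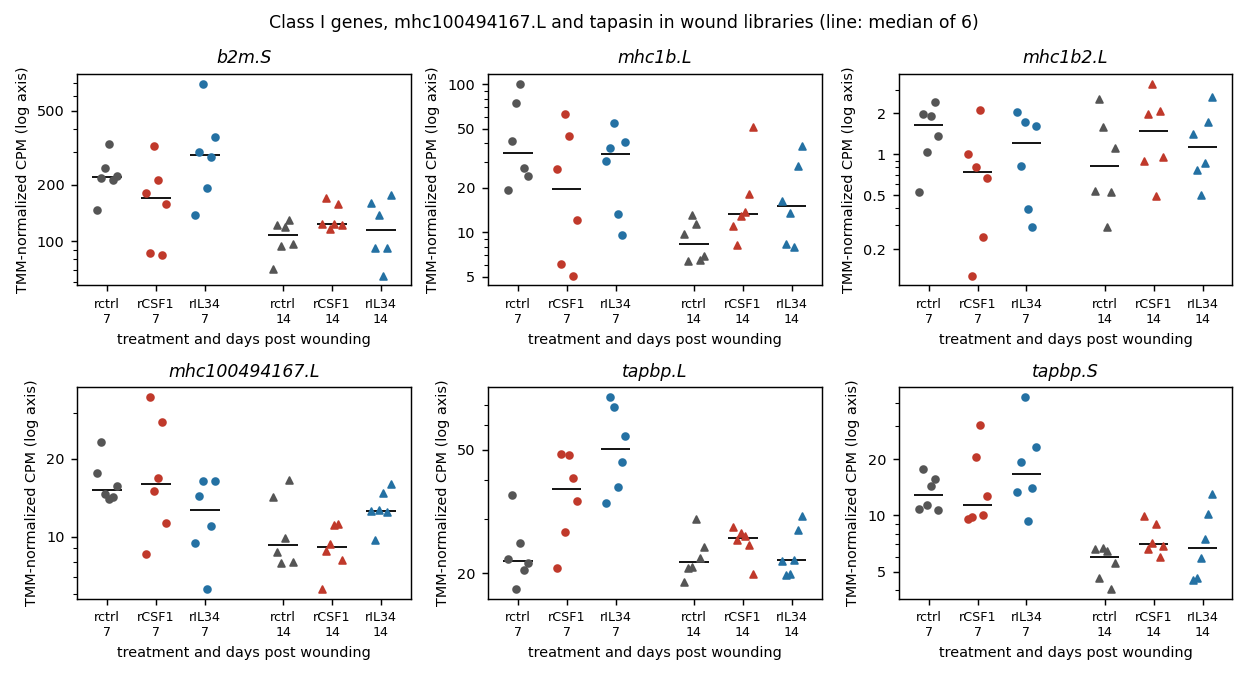
TMM-normalized CPM (log axes) of class I genes, *mhc100494167.L* and tapasin in each library, by treatment and days post wounding, with a line at the median of the 6 libraries of a group. *tapbp.L* sits at 33.6 to 74.0 CPM in rIL34 wounds at 7 dpw and at 17.8 to 35.7 CPM in rctrl wounds of that day.

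At 14 dpw none of the 13 genes passed in any of the 3 treatment comparisons, beside 0.953% of tested genes called either way for rCSF1 against rctrl, 0.0496% for rIL34 against rctrl and 1.24% for rCSF1 against rIL34. DESeq2 and limma voom also called 0. At an unadjusted p under 0.05 the count was 0 for rCSF1 against rctrl, 1 for rIL34 against rctrl and 0 for rCSF1 against rIL34. That 1 gene was *cd74.S*, at 188, 219.6 and 317 CPM in rctrl and 216, 386 and 761 CPM in rIL34 wounds, a log2 fold change of 0.82 (95% interval 0.04 to 1.60, adjusted p = 0.62). *mhc2a.S* was at 58.6, 76.9 and 91.1 CPM after rCSF1 and 62.5, 80.3 and 95.8 CPM after rIL34, with log2 fold changes against rctrl of 0.43 (95% interval -0.13 to 1.00, adjusted p = 0.62) and 0.49 (95% interval -0.07 to 1.05, adjusted p = 0.74). *tapbp.L* was at 0.15 (95% interval -0.24 to 0.53, adjusted p = 0.85) after rCSF1 and 0.05 (95% interval -0.34 to 0.43, adjusted p = 0.99) after rIL34.

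The other levels at 14 dpw had ranges that overlapped those of rctrl. *cd74.L* was at 212, 255 and 386 CPM after rCSF1 and 182, 260.3 and 332 CPM after rIL34, and *cd74.S* was at 203, 291 and 441 CPM after rCSF1. *b2m.S* was at 116, 124 and 171 CPM after rCSF1 and 65.3, 115 and 176 CPM after rIL34. *tapbp.L* was at 19.9, 26.0 and 28.1 CPM after rCSF1 and 19.7, 22.0 and 30.6 CPM after rIL34. *mhc1b.L*, at 8.19, 13.3 and 51.7 CPM after rCSF1 and 7.97, 15.0 and 38.1 CPM after rIL34, gave log2 fold changes of 1.10 (SE 0.55, adjusted p = 0.47) and 1.06 (SE 0.55, adjusted p = 0.67).

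The nonclassical genes and *mhc100494167.L* did not pass against rctrl at 7 dpw. *mhc1b.L* was at 5.09, 19.5 and 63.2 CPM after rCSF1 and 9.58, 33.7 and 54.7 CPM after rIL34, with log2 fold changes against rctrl of -0.87 (95% interval -1.94 to 0.20, adjusted p = 0.22) and -0.64 (95% interval -1.70 to 0.43, adjusted p = 0.41). *mhc1b2.L* was at 0.525, 1.64 and 2.44 CPM in rctrl, 0.128, 0.736 and 2.12 CPM in rCSF1 and 0.290, 1.21 and 2.06 CPM in rIL34 wounds, with -0.89 (95% interval -2.02 to 0.24, adjusted p = 0.23) and -0.42 (95% interval -1.53 to 0.69, adjusted p = 0.62). *mhc100494167.L* was at 14.0, 15.1 and 23.2 CPM in rctrl, 8.57, 15.9 and 34.6 CPM in rCSF1 and 6.29, 12.7 and 16.5 CPM in rIL34 wounds, with 0.20 (95% interval -0.31 to 0.71, adjusted p = 0.58) and -0.42 (95% interval -0.94 to 0.09, adjusted p = 0.23). It fell to 6.28, 9.09 and 11.2 CPM at 14 dpw after rCSF1, where the 7 dpw libraries 2 and 5 were the highest 2.

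The treatment effects at the 2 times were compared in the same model, as the effect at 14 dpw less that at 7 dpw. The effect of rCSF1 rose between the times for 2 of the 13 genes, beside 5.51% of tested genes called higher and 10.5% called lower: *mhc2a.S* by 1.67 (SE 0.41, adjusted p = 0.0081) and *cd74.L* by 1.10 (SE 0.37, adjusted p = 0.039). Without rCSF1 replicates 1, 2 and 6 of 14 dpw neither passed, at 1.79 (adjusted p = 0.052) and 1.15 (adjusted p = 0.11), and *cd74.L* was also lost without rCSF1 replicates 2 and 5 of 7 dpw, at 0.84 (adjusted p = 0.17). The *cd74.L* call ended with any of 11 single libraries left out (0.90 to 1.31, adjusted p up to 0.081): rctrl replicates 1 and 2 and rCSF1 replicates 2 and 5 of 7 dpw, and rctrl replicates 1, 2, 3 and 5 and rCSF1 replicates 1, 4 and 6 of 14 dpw. The effect of rIL34 fell for 1 gene, *tapbp.L*, at -1.09 (SE 0.28, adjusted p = 0.0057), beside 10.9% called lower and 7.55% called higher. This was called under every alternative, at -1.25 to -0.81. *mhc2a.S* did not pass for rIL34, at 0.96 (adjusted p = 0.094). It passed with limma voom (0.90, adjusted p = 0.018), with these groups alone (0.98, adjusted p = 0.0135) and without rIL34 replicate 3 of 7 dpw (1.19, adjusted p = 0.032).

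**Figure D3:**
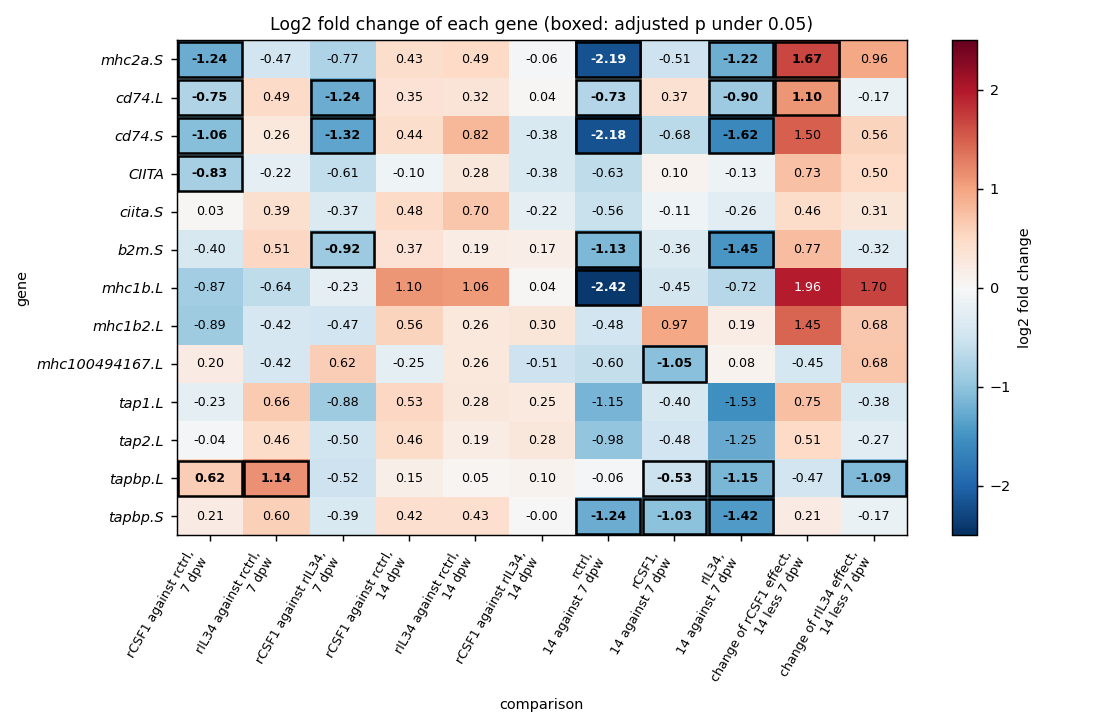
Log2 fold change (colour and number) of each of the 13 genes, in rows, in each comparison, in columns, with boxes where edgeR's adjusted p was under 0.05. The 3 treatment columns at 14 dpw hold no box, and the column of rctrl at 14 against 7 dpw holds 6, all lower.

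The 2 *cd74* copies are counted apart, and their balance was not the same at both times in rctrl wounds. The ratio of *cd74.S* to *cd74.L* CPM, which is not corrected for length and was looked at after the values were seen, had a lowest, median and highest value of 1.36, 3.37 and 4.27 in rctrl wounds at 7 dpw. At 14 dpw it was 0.996, 1.06 and 1.23 in rctrl wounds, and every one of those libraries was below every rctrl library of 7 dpw. It was 0.787, 2.19 and 3.65 after rCSF1 and 1.22, 2.71 and 3.32 after rIL34 at 7 dpw, and 0.811, 1.09 and 1.71 and 0.879, 1.38 and 2.29 at 14 dpw. No test was made of this ratio. For tapasin the ratio of *tapbp.S* to *tapbp.L* was 0.487, 0.535 and 0.762 in rctrl wounds at 7 dpw and 0.180, 0.227 and 0.351 at 14 dpw.

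**Figure D4:**
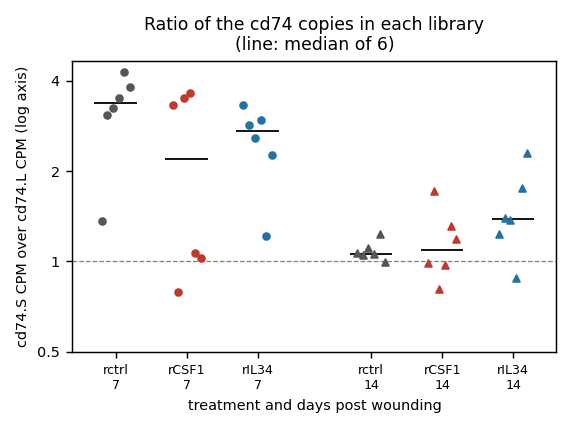
Ratio of *cd74.S* to *cd74.L* CPM (log axis) in each library, by treatment and days post wounding, with a line at the median of the 6 libraries of a group and a dashed line at 1. The rctrl libraries lie at 1.36 to 4.27 at 7 dpw and at 0.996 to 1.23 at 14 dpw.

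The TAP genes split the libraries of every group into high and low ones. *tap1.L* was at 1.24, 13.3 and 38.0 CPM in rctrl, 0.480, 9.10 and 37.3 CPM in rCSF1 and 0.760, 22.3 and 46.8 CPM in rIL34 wounds at 7 dpw, and at 0.673, 4.26 and 18.3, 1.41, 9.01 and 21.0 and 1.85, 9.14 and 13.8 CPM at 14 dpw. Within each group the levels thus spread widely, and the 8 lowest libraries held 0.480 to 1.85 CPM while the other 28 held 4.17 to 46.8 CPM. The same 8 libraries were the 8 lowest for *tap2.L*, at 0.481 to 1.90 CPM against 4.87 to 45.3 CPM in the other 28. They came from all 6 groups: rctrl replicate 3, rCSF1 replicates 1 and 5 and rIL34 replicate 4 at 7 dpw, and rctrl replicates 2 and 6, rCSF1 replicate 2 and rIL34 replicate 1 at 14 dpw. No treatment or time comparison of either gene passed the test.

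The neighbouring *psmb8.L*, which encodes an immunoproteasome subunit and ends 3.96 kb before the start of *tap1.L*, had the same 8 lowest libraries, at 2.93 to 6.21 CPM against 13.6 to 171 CPM in the others. H2-Q9, a row with the name of a mouse class I gene that was chosen after its values were seen, shared 6 of its 8 lowest. Correlations of log2 CPM with *tap1.L* are given over the 28 other libraries as a description, with no test, since those libraries were set apart by the level of *tap1.L* itself and share their groups and both times. Pearson's r was 0.956 for *tap2.L* (Spearman's rho 0.948), 0.831 for *psmb8.L* (rho 0.795) and 0.851 for H2-Q9 (rho 0.813). Taken as deviations from the group means, r was 0.948, 0.751 and 0.823. The 21 other tested genes within 500 kb had r of -0.263 to 0.646 with *tap1.L* over the 28 libraries.

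The reads were aligned to 1 reference genome, and the MHC type of the frogs is not given in the sources used here. The part of allelic differences in these values was not tested. Of the 11 other genes described here, each had 2 to 5 of these 8 libraries among its own 8 lowest, with 5 for *mhc100494167.L* and 3 for *tapbp.L*. The same overlap was not counted over all tested genes, so these numbers have no baseline.

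**Figure D5:**
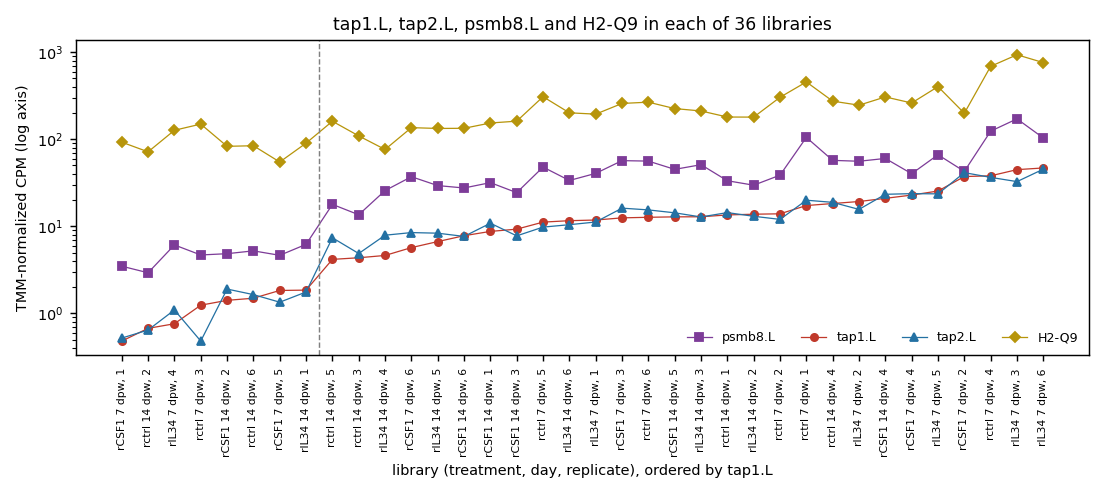
TMM-normalized CPM (log axis) of *tap1.L*, *tap2.L*, *psmb8.L* and H2-Q9 in each of the 36 libraries, ordered by *tap1.L*. Left of the dashed line are the 8 libraries at 0.480 to 1.85 CPM of *tap1.L*, which come from all 6 groups and are also the 8 lowest for *tap2.L* and *psmb8.L*.

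The other genes of the pathway are given by list. As above, 26.4% of all tested genes were called lower and 22.9% higher in rctrl wounds from 7 to 14 dpw, and the counts are to be read beside those shares. In rctrl wounds from 7 to 14 dpw all 7 tested peptide loading and folding rows of the endoplasmic reticulum fell, among them *canx.S* (calnexin, -1.06 on the log2 scale) and *erap1.S* (a peptide-trimming protease, -0.99). Of 14 rows of the class II endosomal pathway 7 fell and 1 rose, with *ifi30.S* (a lysosomal thiol reductase, -3.35), *lgmn.L* (legumain, -2.08) and *ctss.S* (cathepsin S, which cuts the invariant chain, -1.81). Of 5 immunoproteasome and PA28 rows 3 fell, led by *psme1.S* (a proteasome activator subunit, -2.44). Of 18 rows of the interferon gamma axis 15 fell, such as *cxcl9.S* (an interferon-induced chemokine, -5.13). Of 11 costimulation rows 10 fell, such as *cd86.L* (a ligand of CD28 on T cells, -2.48). Of 18 transcription factor rows 8 fell and 2 rose, with *irf8.S* (-2.74) and *spi1.L* (-2.10), both factors of myeloid cells, among those that fell.

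Leukocyte markers were lower over the same interval. In rctrl wounds 10 of 12 macrophage rows fell, as did 7 of 12 dendritic and Langerhans cell rows (1 rose), 12 of 13 B and plasma cell rows and 26 of 27 T and NK cell rows. *CSF1R*, the receptor of both cytokines, fell by 2.68 on the log2 scale. The summed macrophage level went from 526 to 833 CPM to 90.2 to 184 CPM and that of T and NK cells from 139 to 325 to 56.5 to 81.8 CPM, with no overlap. All 11 neutrophil rows fell, with a median of -2.80 on the log2 scale and sums that went from 609 to 1059 to 119 to 223 CPM. Of 20 epidermal rows 14 rose and 2 fell, with sums of 3195 to 7527 CPM at 7 dpw and 6352 to 11008 CPM at 14 dpw. The part of cell numbers in the fall of the MHC genes was not tested.

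After rIL34 at 7 dpw, where 15.8% of all tested genes were called higher and 11.2% lower, the lists gave the following counts. Of 5 immunoproteasome and PA28 rows 4 were lower than in rctrl wounds: *psme1.S* (-1.25), *psme1.L* (-1.02), *PSME2* (-0.96) and *psme2.L* (-0.44). Of 18 interferon gamma axis rows 5 were lower and none higher, among them the chemokine genes *cxcl9.S* (-2.28) and *cxcl11.S* (-1.92), and 13 were not called. Of 7 loading and folding rows 4 were higher: *calr.L* (1.12) and *calr.S* (0.83), which encode calreticulin, and *pdia3.S* (0.67) and *pdia3.L* (0.59), which encode a thiol oxidoreductase of the loading complex. Of 14 class II endosomal rows 1 was higher, *ifi30.L* (0.52), and none lower. Of 18 transcription factor rows 2 were higher, with *rfx5.S*, which binds class II promoters in mammals, at 0.97. In the same list 4 were lower, among them *irf2.L* (-0.60), *nfyb.S* (-0.56) and *irf2.S* (-0.47). The 2 of 18 and 1 of 14 higher are under the share of all genes, and the 4 of 18 lower are over it. Of 11 costimulation rows 2 were lower, *pdcd1lg2.L* (-1.05) and *cd86.L* (-0.84), and none higher. In the marker lists 8 of 27 T and NK cell rows and 3 of 13 B cell rows were lower, 1 of 12 macrophage rows was higher (*CD68*, 0.82) and 15 of 20 epidermal rows were higher. The 1 of 12 is under the share of all genes. Of 12 dendritic cell rows 2 were higher, *id2.S* (0.84) and *id2.L* (0.80), and 2 were lower, among them *ccr7.S* (-2.34).

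After rCSF1 at 7 dpw, 20.4% of all tested genes were called higher and 14.1% lower, and 7.18% and 5.67% without rCSF1 replicates 2 and 5. Of 7 loading and folding rows 5 were higher, led by *calr.L*, at 1.32 and at 0.58 (adjusted p = 0.12) without those libraries, where 0 of the 7 were called. The summed level of these 7 rows was 3648 and 3039 CPM in rCSF1 replicates 2 and 5, and lay between 1143 and 1570 CPM in the 4 remaining ones and between 949 and 1426 CPM in rctrl wounds. Of 5 immunoproteasome and PA28 rows 2 were lower, *psme1.S* at -0.86 and *psme1.L* at -0.82. Without the 2 libraries neither was called, at -0.65 (adjusted p = 0.087) and -0.62 (adjusted p = 0.065).

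Of 18 interferon gamma axis rows 3 were lower, among them *cxcl9.S* (-1.79), and 2 were higher, such as *IFNGR2* (0.83), a chain of the interferon gamma receptor. The 3 of 18 lower are near the share of all genes. With rCSF1 replicates 2 and 5 left out, 3 rows were lower and none higher, with *cxcl9.S* at -1.57 (adjusted p = 0.16) and *IFNGR2* at 0.48 (adjusted p = 0.084), neither called. *rfx5.S* (0.76) and *rfx5.L* (0.48) were higher, and 1 of the 18 transcription factor rows was lower. *rfx5.S* held without the 2 libraries, at 0.52 (adjusted p = 0.0077), and *rfx5.L* did not, at 0.34 (adjusted p = 0.11). Of 14 class II endosomal rows *ifi30.S* was lower (-0.85) and *marchf8.S*, a ubiquitin ligase that removes class II from the surface in mammals, was higher (0.76). Neither was called without the 2 libraries, at -0.46 (adjusted p = 0.24) and 0.14 (adjusted p = 0.59). Of 11 costimulation rows 1 was lower, *cd86.L* (-0.95), and 1 higher, *Cd274* (0.93), both counts under the share of all genes. Without the 2 libraries 0 of the 11 were called. Among markers, 2 of 13 B cell rows were lower and 1 was higher, 2 of 27 T and NK cell rows were lower and 2 higher, and 2 of 12 dendritic cell rows were lower and 1 higher. The lower counts of these 3 lists are near or under the share of all genes. Without the 2 libraries the B cell and the T and NK cell lists held 0 calls, and 2 dendritic cell rows were higher.

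At 14 dpw the lists held few calls outside skeletal muscle. Against rctrl, rCSF1 gave 1 of 14 class II endosomal rows, 1 of 12 macrophage rows and 1 of 11 neutrophil rows higher. With 17 of 18 skeletal muscle rows higher, these were the 20 calls among 195 distinct rows (52 at an unadjusted p under 0.05). Of all tested genes 0.953% were called either way in this comparison. Without rCSF1 replicates 1, 2 and 6 of 14 dpw, 4 of all tested genes were called in it, and the lists were not counted again. rIL34 against rctrl gave 0 calls among the 195 distinct rows tested, of which 74 had an unadjusted p under 0.05. At that unadjusted level 12 of 13 B and plasma cell, 16 of 27 T and NK cell and 6 of 12 dendritic cell rows were higher, none lower. For rCSF1 against rctrl 2, 11 and 2 rows of these lists were higher at that level, none lower. The share of all tested genes at the unadjusted level was not counted, so these unadjusted counts have no baseline. By the adjusted test 0.0496% of all tested genes were called for rIL34 against rctrl. By edgeR's adjusted test the effect of rIL34 rose from 7 to 14 dpw for 10, 16 and 6 rows of these lists. It fell for 2 dendritic cell rows. Of all tested genes 7.55% were called higher and 10.9% lower in that test. The effect of rCSF1 rose for 2, 10 and 2 rows of these lists and fell for 1 B and plasma cell row. In that test 5.51% of all tested genes were called higher and 10.5% lower. The lists were not counted again for the change of the rCSF1 effect without the libraries that stood apart. Between rCSF1 and rIL34, 16 rows were called, beside 1.24% of all tested genes. After rCSF1 14 of 18 skeletal muscle rows were higher. Lower were 2 of 18 interferon gamma axis rows, *cxcl9.S* (-2.69, adjusted p = 0.040) and *socs1.S* (-1.59, adjusted p = 0.028). Without rCSF1 replicates 1, 2 and 6 of 14 dpw, 0 of all tested genes were called between the cytokines.

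The genes whose levels went most closely with *cd74.L* over the 36 libraries were H2-Aa, a row with the name of a mouse class II alpha chain (Pearson's r = 0.823 of log2 CPM), *endou.L* (0.781), *cd74.S* (0.765), *ralgds.L* (0.740) and *mhc2a.S* (0.732). Taken as deviations from the group means, these r were 0.753, 0.748, 0.636, 0.591 and 0.741. With *b2m.S* they were *cd74.S* (0.829), *c1qc.L*, a complement chain made by macrophages (0.824), *arhgap25.S* (0.824), *MGC68606* (0.821) and *xilr2.L* (0.821). As deviations from the group means, the r with *b2m.S* were 0.69, 0.611, 0.66, 0.71 and 0.656. These are descriptions over libraries that share the groups, with no test. H2-Aa was picked because its levels followed *cd74.L* in these same libraries. Its tests below are thus descriptions and no separate support for the changes of *cd74.L*. H2-Aa itself was at 117 to 238 CPM in rctrl, 34.7 to 103 CPM in rCSF1 and 116 to 328 CPM in rIL34 wounds at 7 dpw. Its log2 fold change was -1.14 (SE 0.29, adjusted p = 0.0027) for rCSF1 against rctrl, 0.42 (SE 0.29, adjusted p = 0.29) for rIL34 against rctrl and -1.56 (SE 0.29, adjusted p = 0.00085) for rCSF1 against rIL34. Without rCSF1 replicates 2 and 5 the first was -0.85 (adjusted p = 0.047) and the last -1.22 (adjusted p = 0.012). For 14 against 7 dpw it was -1.77 (SE 0.29, adjusted p = 8.5e-06) in rctrl, 0.11 (SE 0.29, adjusted p = 0.76) in rCSF1 and -1.83 (SE 0.29, adjusted p = 7.9e-06) in rIL34 wounds. A further row with a class II alpha chain name, *hla-dqa2.L*, was chosen after its values were seen. It was at 58.6 to 212 CPM in rctrl, 25.6 to 137 CPM in rCSF1 and 17.8 to 322 CPM in rIL34 wounds at 7 dpw, and these ranges overlapped. Its log2 fold change was -0.50 (SE 0.43, adjusted p = 0.37) for rCSF1 and 0.22 (SE 0.42, adjusted p = 0.74) for rIL34 against rctrl. From 7 to 14 dpw *hla-dqa2.L* changed by -1.17 (SE 0.43, adjusted p = 0.0235) in rctrl and by -1.21 (SE 0.43, adjusted p = 0.020) in rIL34 wounds. In rCSF1 wounds the change was -0.03 (SE 0.42, adjusted p = 0.95).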

How the data were processed

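Counts are read pairs per gene as deposited, unnormalized. The authors trimmed reads with fastp, aligned them with minimap2 2.29 to RefSeq Xenopus_laevis_v10.1, sorted with SAMtools 1.16.1 and counted pairs over exons with featureCounts 2.1.1. No strand option is named, so the counts of overlapping genes on opposite strands may be affected. Rows with no gene name (417, with 0.628 to 2.08% of counts) were left out. Rows at 0.5 CPM or more in at least 10 libraries (28225) were given TMM factors, then the quasi-likelihood test of edgeR 4.0.16 (glmQLFit, glmQLFTest) in R 4.3.3, in 1 model of 6 groups over 36 libraries, with Benjamini-Hochberg adjustment. Groups came from the labels. CPM hold no length correction, so levels were not compared between genes. The script was tested on simulated data. Gene symbols matched RefSeq for 12 of the 13 rows.

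The genes and lists were chosen with earlier results of these data known. Named list genes are up to 4 rows per list and comparison with the largest change past the test and a mean of at least 1 CPM. Of the lists, 4 rows (*psmb9.S*, *erap1.L*, *irf1.L*, *zbtb46.L*) had no count in any library. Alternatives were DESeq2 1.42.0, limma 3.58.1 voom with quality weights, RLE factors, no filter, a 5 CPM filter, the compared groups alone, a replicate block, sums of L and S copies, single libraries left out, and the libraries that stood apart left out (for the lists and H2-Aa, chosen after seeing the data).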

Additional observations from a re-analysis of the deposited data

Results flagged for a closer look

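*mhc1b.L* was at 51.7 CPM in rCSF1 replicate 6 at 14 dpw and at 8.19 to 18.2 CPM in the other 5 libraries of that group. The gap to the nearest library was large for the group's range. That library also held the highest skeletal muscle sum of the group, at 27642 CPM, and its highest macrophage sum, at 374 CPM. The part of tissue content in this value was not tested. This was 1 of 78 groups checked in this way (13 genes in 6 groups), where chance flags about 1 in 20.

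The effect of rCSF1 against rctrl differed between 7 and 14 dpw for *mhc2a.S*, by 1.67 (SE 0.41, adjusted p = 0.0081) on the log2 scale, and for *cd74.L*, by 1.10 (SE 0.37, adjusted p = 0.039). The effect of rIL34 differed between the times for *tapbp.L*, by -1.09 (SE 0.28, adjusted p = 0.0057). Each is edgeR's test of the difference itself. The settings and libraries that end some of these calls are given above.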

How the results depend on the processing

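Over the 13 genes and 11 comparisons, 1085 of 1138 results under other settings stayed on their side of the threshold. Of the others, 31 lost and 22 gained a call, and 0 called changes reversed. With 1 library left out, 1963 of 2028 stayed, 39 lost and 26 gained a call, and 0 called changes reversed. Direction was compared only where the main or the other fit made a call, and some uncalled changes did switch sign. For the members called, rCSF1 against rctrl, 7 dpw, gave 5, and 2 with voom, 1 with the compared groups alone, 1 without rCSF1 libraries 2 and 5, and 1 to 5 with 1 library left out. Over all 28225 tested genes, those first 3 settings called 6253, 5096 and 3626, beside 5766 higher and 3982 lower in the main fit. For rIL34 against rctrl, 7 dpw, the member count was 1, with 2 under voom and 1 to 2 with 1 library left out. Voom called 9078 of all tested genes here, beside 4471 higher and 3159 lower in the main fit. For rCSF1 against rIL34, 7 dpw, the member count was 3, with 0 with the compared groups alone, 1 without rCSF1 libraries 2 and 5, and 1 to 5 with 1 library left out. With the compared groups alone, 5 of all 28225 tested genes were called between the cytokines, and 1754 without libraries 2 and 5. The main fit called 2638 higher and 2272 lower. For rctrl, 14 against 7 dpw, the member count was 6, with 8 under voom, 9 with the compared groups alone and 6 to 7 with 1 library left out. Those first 2 settings called 16107 and 15457 of all tested genes, beside 6460 higher and 7446 lower in the main fit. For rCSF1, 14 against 7 dpw, the member count was 3, with 4 under voom, 2 with a 5 CPM filter, with the compared groups alone or without rCSF1 libraries 1, 2 and 6 of 14 dpw, and 2 to 5 with 1 library left out. In that order these settings called 12884, 11646, 11888 and 11654 of their tested genes, beside 6733 higher and 8581 lower in the main fit. For the change of the rCSF1 effect the member count was 2, with 4 under DESeq2, 1 with voom, 1 without rCSF1 libraries 2 and 5 of 7 dpw, 0 without rCSF1 libraries 1, 2 and 6 of 14 dpw, and 1 to 5 with 1 library left out. In that order the first 4 settings called 5599, 2421, 571 and 69 of all tested genes. The main fit called 1555 higher and 2976 lower. For the change of the rIL34 effect the member count was 1, with 2 under voom, 2 with the compared groups alone and 1 to 2 with 1 library left out. Voom and the groups alone called 7955 and 7125 of all tested genes, beside 2132 higher and 3073 lower in the main fit. The causes were not tested, except that fewer libraries entered some fits.

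The replicate numbers do not pair the samples: deviations of same-numbered libraries correlated at -0.239 to 0.339, and in 0 of 15 pairs of groups was every one over 0.1. With the replicate block the counts were 5, 1 and 4 for the 3 comparisons of 7 dpw in the order above, 0 for those of 14 dpw, 6, 3 and 6 for the times in rctrl, rCSF1 and rIL34 wounds, and 2 and 1 for the changes of effect. Its 1 changed call was *mhc2a.S* in rCSF1 against rIL34, 7 dpw, gained at -0.85 (edgeR's adjusted p = 0.037). *mhc1b2.L*, at about 1 CPM, is limited by depth.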
